A study of Gallus gallus with 8 samples.

Results

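The comparison described here set the HH24 libraries apart from both other groups of the series and asked in which genes young mesenchyme, once grafted into an older wing, no longer resembled mesenchyme of its own age. The members were all 8 libraries of the series: HH24 (3 libraries), HH27 (3 libraries) and HH24g (2 libraries), each assigned by its sample title. HH24 and HH27 are stages of Hamburger and Hamilton (HH), and both groups were untreated wild type (WT) distal wing bud mesenchyme of the chick. HH24g was mesenchyme from CMV-GFP donors, embryos that express green fluorescent protein in all tissues. It was taken from HH20 wing buds, freed of its epithelium, placed beneath the apical ectodermal ridge of WT hosts at HH24 and collected 24 h later. By then the donor cells were as old as HH24 tissue, whereas their host had reached HH27. According to the methods of the study, several pieces of tissue were pooled for each library, the HH27 tissue came from the wing opposite the graft in the host embryos, and the HH24 tissue came from other embryos. Age and surroundings thus cannot be told apart here from the set of embryos and the handling that HH24 did not share with the other groups.

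In a growing wing bud, fibroblast growth factors (Fgfs) from the apical ridge signal to the mesenchyme beneath it, and Bmp signals act as a counterweight. Whether Fgfs directly keep this mesenchyme undifferentiated is disputed, and the study of these data proposes that they do not. Hox genes are switched on in sequence along their clusters, and zinc finger factors of the Sall family are expressed in the distal mesenchyme. Heterochronic grafts, in which donor and host differ in age, are the classical test of whether such steps are timed by the cells themselves or by their neighbours.

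For each gene the level in HH24 was compared with the mean of the levels in HH27 and HH24g, with equal weight for each group, in a limma voom fit of all 8 libraries. A gene was called when its p-value, adjusted after Benjamini and Hochberg over the 9062 genes tested, was under 0.05 and its log2 fold change was over 1 in size, that is, more than 2-fold. Levels are given as CPM, reads scaled to a common library size after TMM normalization, and errors of log2 fold changes are standard errors (SE). With these limits 25 genes were called, 0.276% of those tested, and 1175 genes had an unadjusted p-value under 0.05. Of the 25, 23 were higher in HH24 (0.254% of the genes tested) and 2 were lower (0.0221%). The median log2 fold change of all genes tested was -0.02. For comparison, the same fit called 135 genes when HH27 was set against the mean of the other groups and 34 when HH24g was.

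All 25 called genes differed from HH27 and from HH24g in the same direction. In 23 of them the 3 HH24 libraries lay outside the range of the other 5 libraries, as did 12.3% of all genes tested (5.25% higher and 7.01% lower in HH24). In IGDCC4 and FOXI2 the libraries overlapped. The 25 were selected for a difference in these same libraries, so their separation is no further support for it. Of the 25 genes, 23 were also called between HH24 and HH27 (97 genes called, 1.07% of those tested, of which 0.607% were higher and 0.463% lower in HH24), and 1, COL12A1, was called between HH24 and HH24g (1 gene called, 0.011%). Both of these contrasts contain the HH24 libraries, so they are not independent of the combined one.

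**Figure D1:**
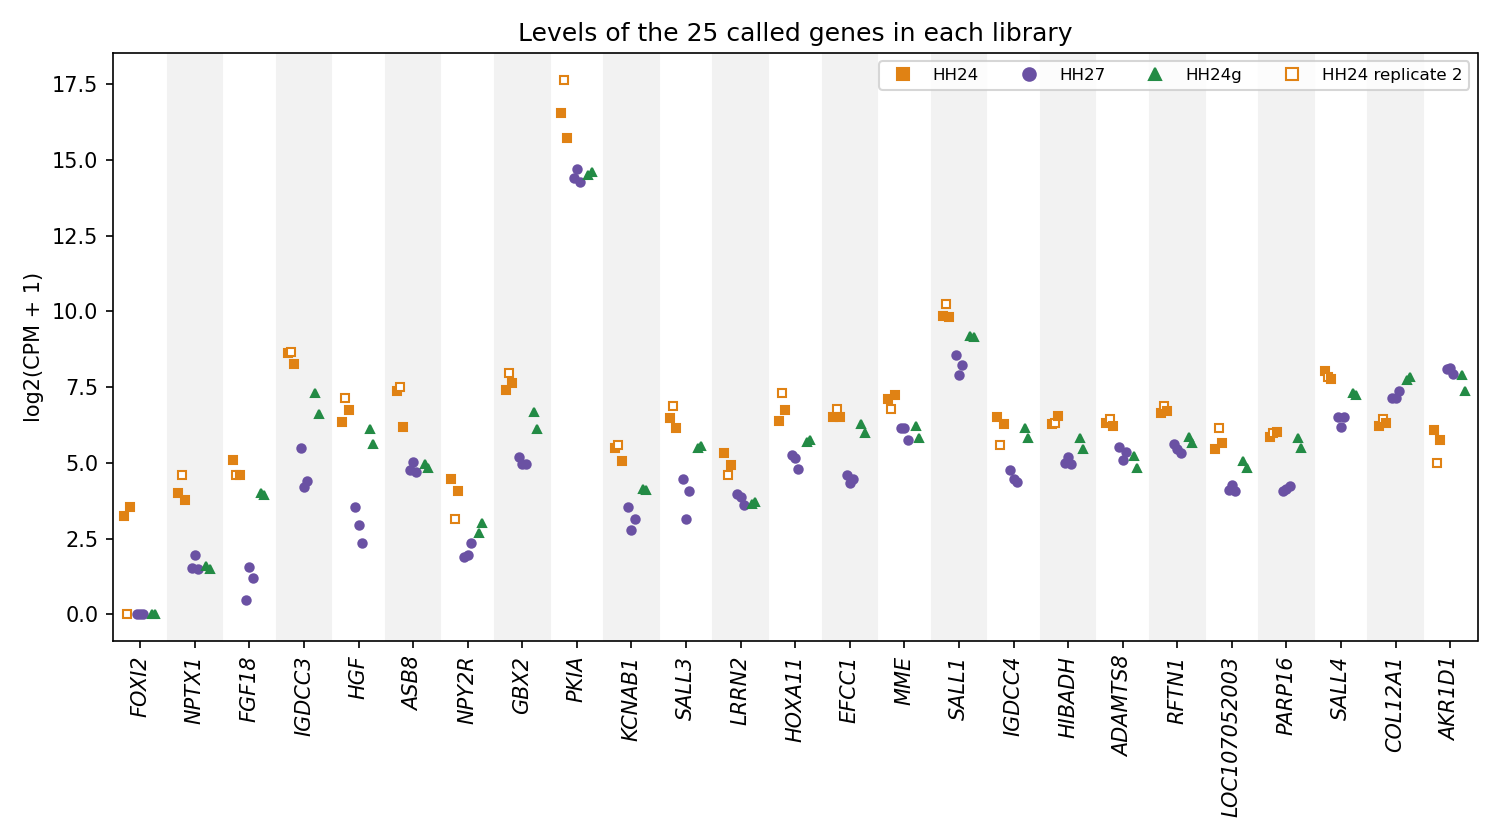
Levels of the 25 called genes in each of the 8 libraries, as log2(CPM + 1), ordered by log2 fold change from the highest (FOXI2) to the lowest (AKR1D1). Each point is 1 library, squares are HH24, circles HH27 and triangles HH24g, and the open square is HH24 replicate 2. Apart from FOXI2 and IGDCC4, all squares of a gene lie above, or for COL12A1 and AKR1D1 below, all circles and triangles.

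The grafts did not sit at the same place in these genes. Their position was expressed as the HH24g difference from HH24 over the HH27 difference from HH24, which is 0 where grafts equal HH24 and 1 where they equal HH27. Its median over the 25 genes was 0.566. It was under 0.5 in 11 genes, between 0.5 and 1 in 9 genes and over 1 in 5 genes. A stricter description counted the grafts as matching HH27 when HH24 differed by more than 1 on the log2 scale from each of the other groups and these differed by less than 1 from each other. This held for 9 genes, of which 8 were higher in HH24 (FOXI2, NPTX1, ASB8, NPY2R, PKIA, KCNAB1, LRRN2 and MME) and 1 was lower (AKR1D1). FOXI2 met this limit with 0 reads in all HH27 and HH24g libraries, so its match is not shown at this depth. KCNAB1 and NPY2R came closest to missing it, with 0.93 and 0.85 between HH24g and HH27. None of the 9 was called between HH24 and HH24g. Without HH24 replicate 2, 4 of the 9 were still called, namely PKIA, KCNAB1, MME and AKR1D1. Between HH24g and HH27, 155 genes were called (1.71% of those tested, 1.02% higher and 0.695% lower in HH24g), 8 of the 25 among them, and the matching genes could not be, by how they were defined.

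**Figure D2:**
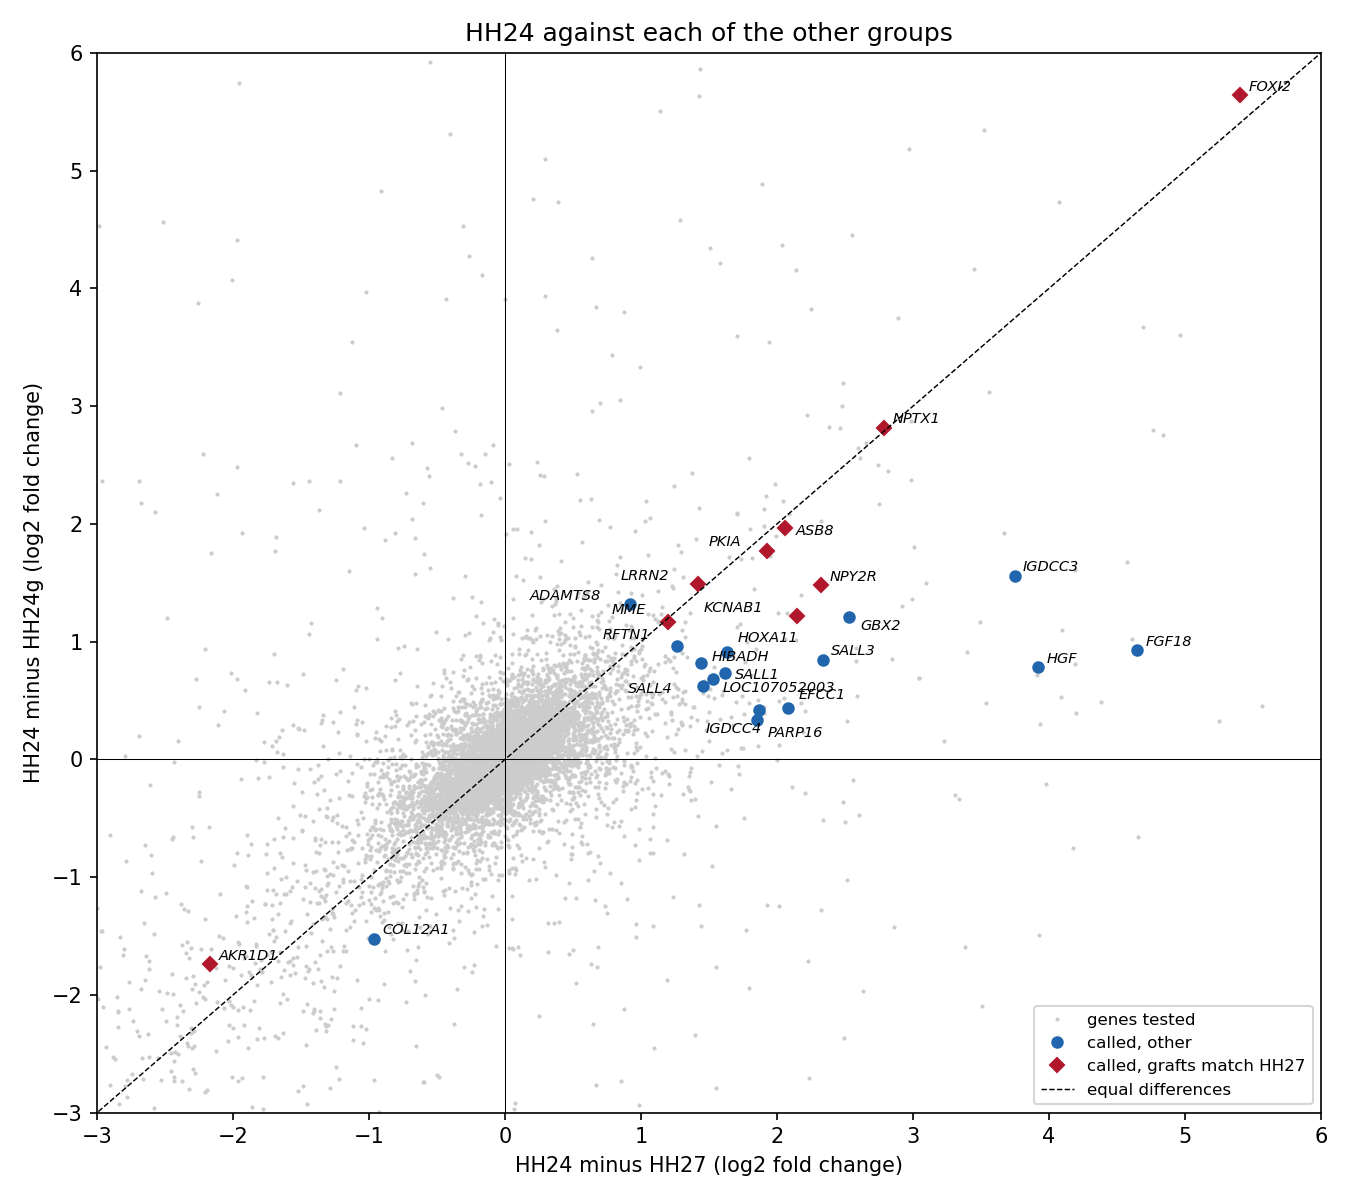
Log2 fold change of HH24 against HH27 (horizontal axis) and against HH24g (vertical axis) for each gene tested. Red diamonds are the 9 called genes in which grafts match HH27 by the limit of 1 on the log2 scale, and blue circles are the other 16 called genes. Of the diamonds, KCNAB1 (2.15 against HH27, 1.22 against HH24g) and NPY2R (2.33 and 1.48) lie farthest from the dashed line of equal differences. Both axes contain the same HH24 libraries, and 152 genes lie outside the plotted range.

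HH24 replicate 2 stood apart and was left out in a second fit. The study itself left out 1 HH24 library after quality control, which the labels do not name. It held 128271 reads after scaling, against 934614 and 1022438 in HH24 replicates 1 and 3 and 1029752 to 3849969 in the other groups. Only 9.24% of its reads matched genes, against 45.5% to 67.6% in the other 7 libraries, and 1 unmatched transcript took 74.3% of them. Across genes, which are not independent replicates, its log2 CPM had a Pearson's r of 0.722 and 0.720 with HH24 replicates 1 and 3, which had 0.853 with each other. Replicates 1 and 3 had 0.873 and 0.883 with HH24g replicate 2, and 0.832 and 0.841 with HH27 replicate 2. By this measure they were no closer to each other than to most libraries of the other groups. Without this library 17 of 9384 genes were called (0.181%), 15 higher (0.160%) and 2 lower (0.0213%) in HH24. Of the 17, 15 were among the 25: GBX2, HOXA11, SALL1, SALL3, SALL4, HGF, IGDCC3, EFCC1, RFTN1, HIBADH, KCNAB1, MME, PKIA, COL12A1 and AKR1D1. The other 10 of the 25 kept their direction and had adjusted p-values between 0.0635 and 0.0923 in the smaller fit. No log2 fold change of the 25 moved by more than 0.22. HH24 replicates 1 and 3 lay outside the range of the other 5 libraries in all 25, as they did in 20.1% of all genes tested (9.92% higher, 10.2% lower). Here too the 25 had been selected on these libraries, so this is no separate support.

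The other HH24 libraries mattered more for the calls. Without HH24 replicate 1 no gene was called (926 at an unadjusted p-value under 0.05), and the lowest adjusted p-value among the 25 was 0.0822, for HGF and GBX2. Without HH24 replicate 3, 4 genes were called, namely IGDCC3, PKIA and ASB8 of the 25 and MAP3K1 (2.19 ± 0.23, adjusted p 0.0365). Every other gene of the 25 was thus called in neither of these fits, also where only other fits are named below. Leaving out HH27 replicate 3 left 12 calls, and leaving out HH24g replicate 2 left 9. In each fit that left out 1 library other than HH24 replicate 1 or 3, 8 genes were called: IGDCC3, GBX2, HGF, SALL4, EFCC1, RFTN1, COL12A1 and AKR1D1. Across all alternatives tried no called gene changed direction. The balance of higher and lower genes depended on the tool, with 18 higher and 25 lower of 43 calls in edgeR and 75 higher and 76 lower of 151 calls in DESeq2.

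**Figure D3:**
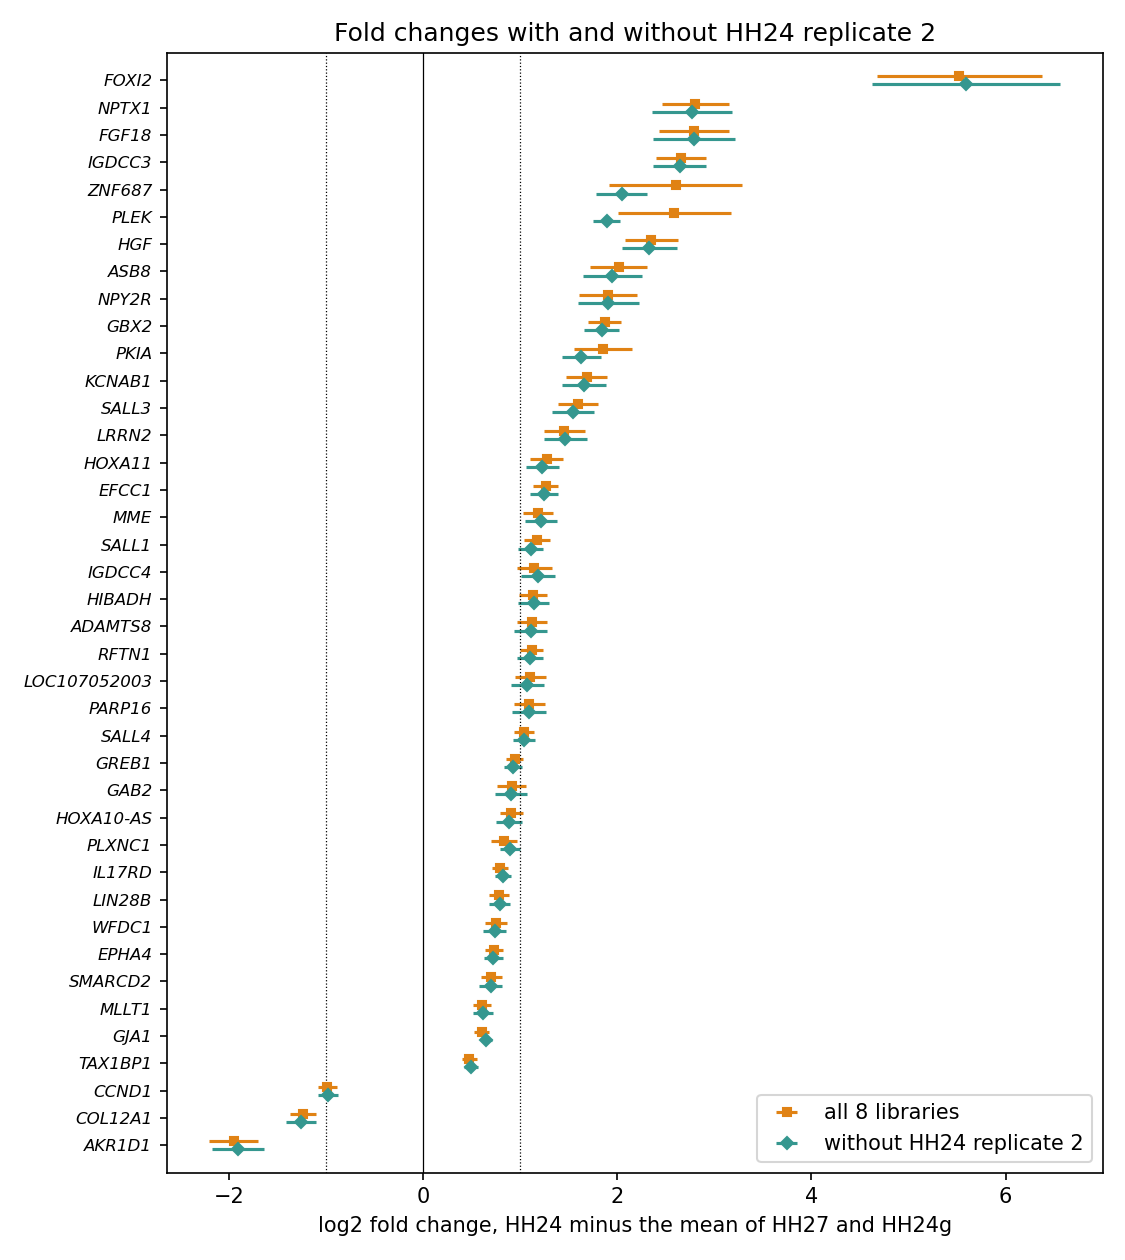
Log2 fold change (HH24 minus the mean of HH27 and HH24g) ± SE for the 38 genes with an adjusted p-value under 0.05 and for PLEK and ZNF687, with all 8 libraries (squares) and without HH24 replicate 2 (diamonds). Dotted lines mark the limit of 1 in both directions. The values with and without the library lie close together except for ZNF687, PLEK and PKIA.

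Blood content and depth after scaling moved with the split. Summed haemoglobin levels were 4110, 4023 and 4914 CPM in HH24 replicates 1 to 3, 446 to 2268 CPM in HH27 and 739 to 1403 CPM in HH24g. HH27 and HH24g thus overlapped, and HH24 lay above both. The difference of 1.96 on the log2 scale gave p = 0.0357 in a two-sided exact permutation test (56 arrangements, lowest p possible 0.0179; adjusted p 0.0417 over 7 measures). Without HH24 replicate 2 it was 2.01, with p = 0.0952 by the same exact test (21 arrangements, lowest p possible 0.0476). The effective library size was lower in all HH24 libraries than in the other 5 (exact permutation p 0.0179), with p = 0.0952 by the same exact test without HH24 replicate 2. This separation was narrow, with 1022438 reads in HH24 replicate 3 against 1029752 in HH27 replicate 2, and held only after scaling. Before scaling, HH27 replicate 2 had 881344 matched reads, fewer than HH24 replicates 1 and 3 with 982666 and 989119. The 6 most abundant transcripts took 16.1% to 35.4% of the reads in HH27 and HH24g, but 54.0%, 94.4% and 40.8% in HH24. Limb mesenchyme markers (17 tested, with SALL1 and SALL4 called) were present in every library, with 3625 to 3797 CPM summed in HH24, 2262 to 2753 CPM in HH27 and 3334 to 3439 CPM in HH24g. These sums include SALL1 and SALL4, the called genes of the list, beside 0.276% called of all genes tested. The median log2 fold change of the list was 0.0072, with 9 genes above 0 and 8 below.

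**Figure D4:**
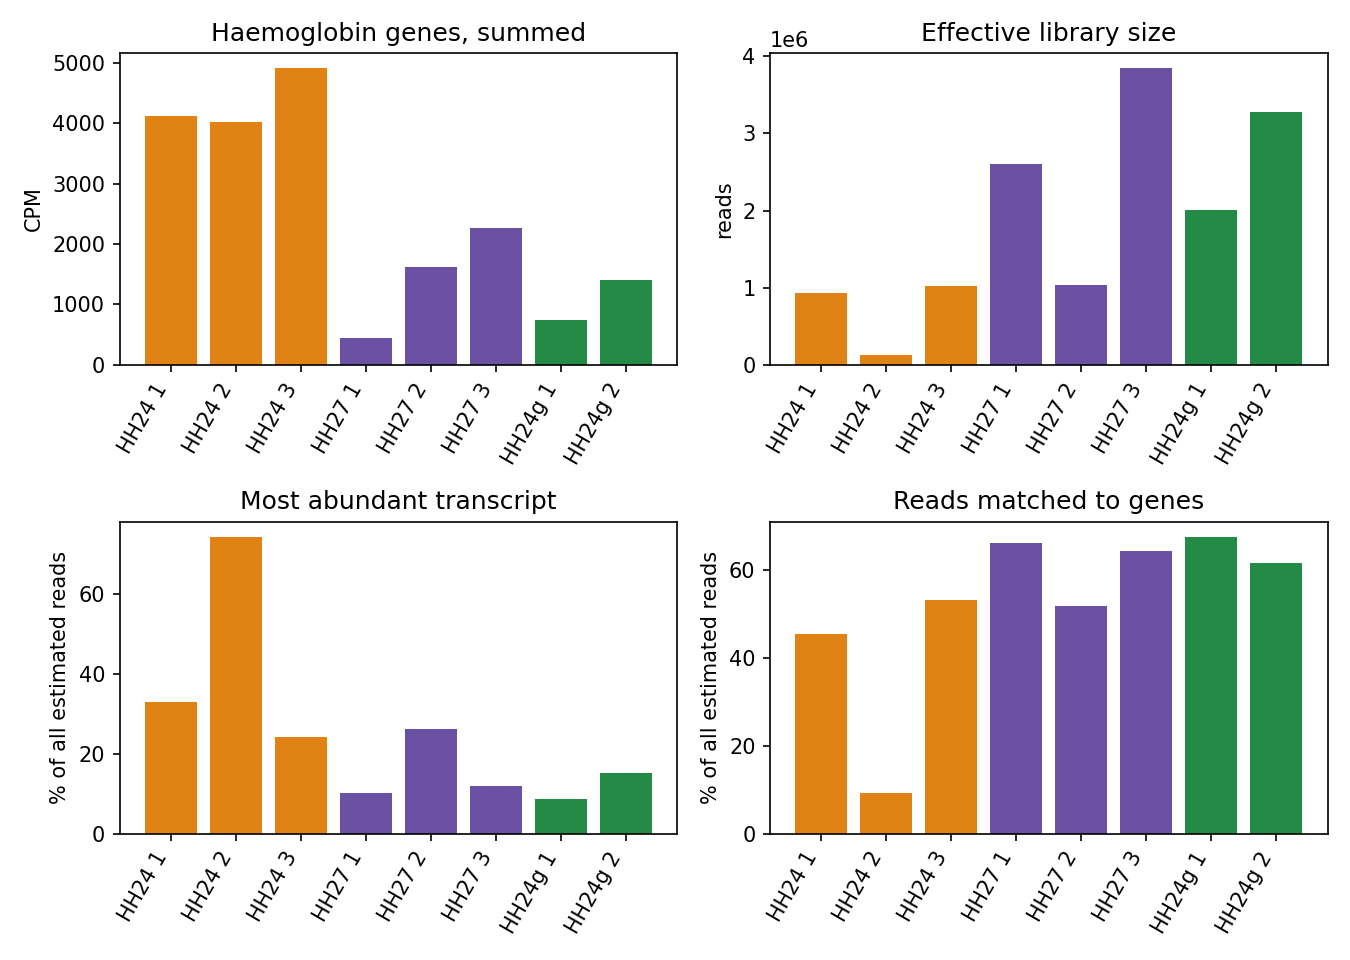
Summed level of haemoglobin genes (CPM), effective library size (reads), share of all estimated reads in the most abundant transcript (%) and share matched to genes (%) in each library, coloured by group. HH24 libraries are the highest in haemoglobin, at 4023 to 4914 CPM, and the lowest in effective size, and HH24 replicate 2 has 74.3% of its reads in 1 transcript.

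Of the haemoglobin genes themselves, HBBR (log2 fold change 2.16 ± 0.47, adjusted p 0.0939, limma voom), HBZ (2.01 ± 0.50, adjusted p 0.128), HBA1 (1.88 ± 0.53, adjusted p 0.185) and HBAD (1.72 ± 0.56, adjusted p 0.254) were measured above all other libraries in all HH24 libraries, and none passed this test with all libraries. Some passed it under alternatives. DESeq2 called HBBR (adjusted p 0.0116), HBZ (0.0404) and HBA1 (0.0476), limma voom on libraries thinned to equal depth called the same 3 (0.0163, 0.0274 and 0.0323), and without HH27 replicate 1 it called HBBR (0.0218), HBZ (0.0376) and HBAD (0.0481). HBBA had few reads and overlapped (-2.23 ± 2.20, adjusted p 0.720). In the list of erythroid genes 15 of 20 members were tested and none was called by limma voom with all libraries, with a median log2 fold change of 1.52 (1.45 without HH24 replicate 2). Summed over the list, the level was 4264 to 5204 CPM in HH24, 674 to 2515 CPM in HH27 and 952 to 1625 CPM in HH24g. Fewer blood cells in a sample and less RNA in each cannot be told apart in bulk tissue. Without these 15 genes the same 25 genes were called. With the haemoglobin level as a covariate 1 gene was called, IGDCC3 (3.85, adjusted p 0.00218). All 25 genes kept their direction in that fit with log2 fold changes over 1 in size, 21 of them larger than without the covariate, and the lowest adjusted p among the other 24 was 0.0963. GBX2, for example, measured 2.25 and HGF 3.30. Because haemoglobin was higher in every HH24 library than in all others, the fit with the covariate cannot separate blood content from the group difference. With all libraries thinned to the depth of the shallowest, 19 of 6196 genes were called, 10 of them among the 25. Without HH24 replicate 2 and with the others thinned alike, it was 16 genes, 13 of them among the 25. The part of blood in the single genes described next was not tested beyond these fits.

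Transcription factors of the Sall family were called in 3 members. SALL1, mutated in human Townes-Brocks syndrome with its thumb anomalies, measured 923, 1208 and 895 CPM in HH24 replicates 1 to 3, 380, 240 and 300 CPM in HH27, and 577 and 566 CPM in HH24g. All HH24 libraries were above both graft libraries, which were above all HH27 libraries. Its log2 fold change was 1.17 ± 0.13 (adjusted p 0.0114, limma voom) and 1.11 without HH24 replicate 2. SALL4, whose loss causes radial ray defects in humans, showed the same order, with 260, 226 and 219 CPM in HH24, 90.1, 71.9 and 91.4 CPM in HH27 and 159 and 151 CPM in HH24g. It was called at 1.04 ± 0.11 (adjusted p 0.00826), just above the limit on fold change. SALL3 measured 88.8, 117 and 70.4 CPM in HH24, 21.1, 7.77 and 15.8 CPM in HH27 and 43.9 and 45.8 CPM in HH24g (1.59 ± 0.20, adjusted p 0.0183). In all 3 genes the grafts lay between both stages, somewhat nearer to HH24, with positions of 0.454, 0.427 and 0.363. SALL1 was not called without HH24g replicate 2, nor was SALL3 without HH24g replicate 2 or HH27 replicate 3 (log2 fold changes over all leave-one-out fits 1.11 to 1.26 and 1.495 to 1.80).

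GBX2, a homeobox factor known for its role at the border between midbrain and hindbrain, measured 167, 249 and 200 CPM in HH24, 36.0, 30.1 and 30.4 CPM in HH27 and 102 and 68.4 CPM in HH24g. The 3 groups did not overlap. Its log2 fold change was 1.87 ± 0.17 (adjusted p 0.00826, limma voom) and 1.84 without HH24 replicate 2. FOXI2, a forkhead factor, had 8, 0 and 11 reads in HH24 replicates 1 to 3 and 0 reads in all other libraries. The 0 in HH24 replicate 2 allows up to 23.4 CPM, so it does not show absence at this depth. The HH24 mean was 2.21-fold the level that 3 reads allow in the shallowest HH27 or HH24g library (3.32-fold without HH24 replicate 2). The low HH24 reads were given no lower limit here, so this ratio is not a lower bound. FOXI2 passed the filter on low counts through HH24 alone, so a higher level there was fixed once it was tested. Its adjusted p of 0.0387 (limma voom) rose to 0.0923 without HH24 replicate 2. Further, FOXI2 did not pass the filter on low counts in 4 of the 8 leave-one-out fits and was called in 1 of the others.

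HOXA11, which patterns the forearm segment of the wing, measured 83.5, 156 and 107 CPM in HH24, 37.2, 35.0 and 27.01 CPM in HH27 and 50.9 and 53.2 CPM in HH24g. Again HH24 was highest and HH27 lowest, with no overlap between groups. The log2 fold change was 1.27 ± 0.17 (adjusted p 0.0190, limma voom), 1.23 without HH24 replicate 2, and the call was lost without HH24g replicate 2 (1.17 to 1.47 over all leave-one-out fits). In the list of Hox genes of groups 9 to 13 with EVX1 and EVX2, HOXA11 was 1 of 11 tested genes to be called. Of all genes tested 0.276% were called. The median of the list was 0.71 (0.70 without HH24 replicate 2). HOXA9 (0.75 ± 0.14, adjusted p 0.0800), HOXA10 (0.94 ± 0.18, adjusted p 0.0800) and EVX1 (1.37 ± 0.23, adjusted p 0.0528) had HH24 libraries above all others without passing the test. Such a separation upwards was found in 5.25% of all genes tested. HOXA13, the last gene of the cluster, measured 0.71 ± 0.32 (adjusted p 0.395) and its libraries overlapped. HOXA13 in HH24 was level with HH27 (0.06) and above HH24g (1.37). EVX1 too differed less from HH27 (0.77) than from HH24g (1.97). EVX2 lay the other way, at -1.74 ± 0.54 (adjusted p 0.230), with mean levels of 82.8 CPM in HH27, 11.2 CPM in HH24 and 6.52 CPM in HH24g. EVX2 in the grafts was thus far from HH27.

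A further look at gene order was taken after the values had been seen, because several of the genes are neighbours. Positions were read from the order of tested genes in the RefSeq annotation of GRCg7b. On chromosome 2, HIBADH and TAX1BP1 follow the HOXA cluster and EVX1. HIBADH, a mitochondrial enzyme of valine breakdown, measured 77.0, 78.0 and 92.9 CPM in HH24, 31.0, 35.9 and 29.9 CPM in HH27 and 55.9 and 43.1 CPM in HH24g. It was called at 1.13 ± 0.15 (adjusted p 0.0183, limma voom), but not without HH27 replicate 3 or HH24g replicate 2 (1.01 to 1.24 over all leave-one-out fits). TAX1BP1, an autophagy receptor, passed the adjusted p with a smaller difference (0.48 ± 0.07, adjusted p 0.0414), as did HOXA10-AS (0.91 ± 0.12, adjusted p 0.0190). Reads of HOXA10-AS may belong to HOXA10 on the other strand, since the strand setting of the counting is not given. The 13 tested genes from SKAP2 to TAX1BP1, a stretch chosen after the values were seen, had log2 fold changes between 0.19 ± 1.53 (HOXA5) and 1.37 (EVX1). Of these, HOXA10-AS, HOXA11, HIBADH and TAX1BP1 passed the adjusted p, beside 38 of all 9062 genes tested. Libraries overlapped in SKAP2, HOXA4, HOXA5, HOXA7 and HOXA13. Against HH27 alone, HOXA13 measured 0.06 and HOXA7 0.13, whereas HOXA11 measured 1.63 and HIBADH 1.44. The stretch is thus not higher in HH24 than in HH27 throughout. JAZF1, next in order after TAX1BP1, measured 0.09 ± 0.25. At the other end SNX10 measured 1.09 ± 0.70 with overlapping libraries (adjusted p 0.554), and beyond it CBX3 and HNRNPA2B1 measured 0.03 ± 0.10 and 0.05 ± 0.12. CREB5, beyond JAZF1, measured -1.81 ± 0.46 (adjusted p 0.138).

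**Figure D5:**
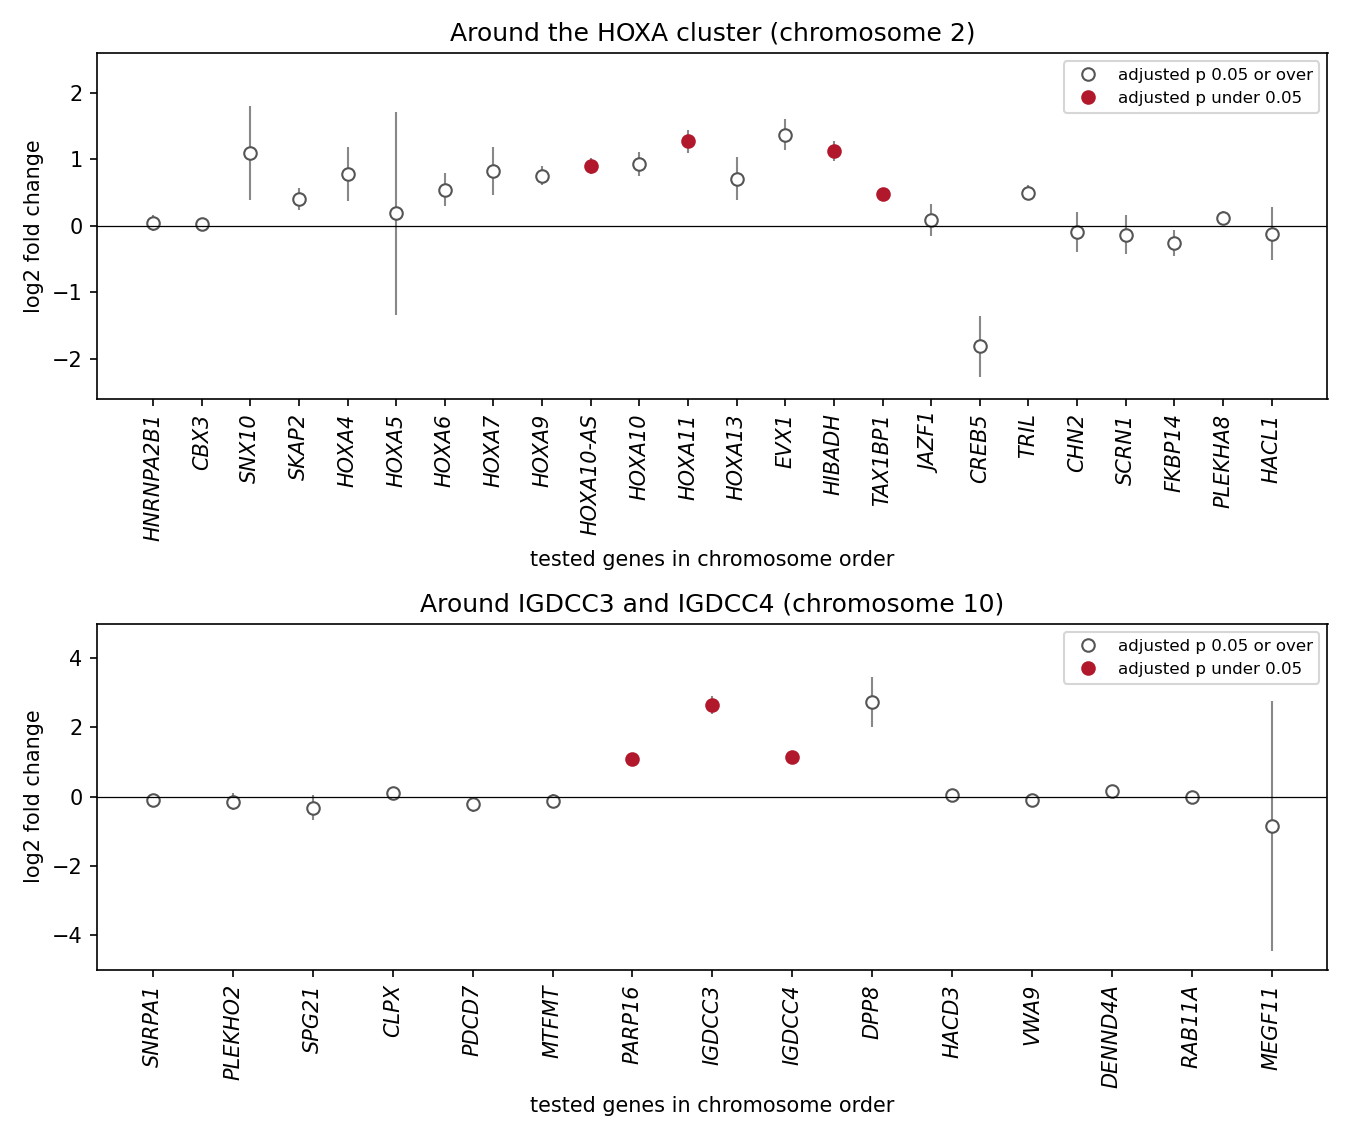
Log2 fold change (HH24 minus the mean of HH27 and HH24g) ± SE of tested genes in chromosome order around the HOXA cluster (top) and around IGDCC3 and IGDCC4 (bottom). Filled points have an adjusted p-value under 0.05. Values from SKAP2 to TAX1BP1, a stretch chosen after the values were seen, lie between 0.19 (HOXA5, SE 1.53) and 1.37. PARP16, IGDCC3 and IGDCC4 stand above genes to their left, which lie near 0.

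The second such group was on chromosome 10, where PARP16, IGDCC3 and IGDCC4 are adjacent among tested genes and all 3 were called. IGDCC3 and IGDCC4 encode surface proteins of the immunoglobulin superfamily related to the netrin receptor DCC. IGDCC3 measured 399, 405 and 304 CPM in HH24, 43.7, 17.5 and 20 CPM in HH27 and 158 and 96.5 CPM in HH24g. Its levels in HH24 were the highest, in HH27 the lowest, and the grafts lay between them at a position of 0.417. The log2 fold change of 2.65 ± 0.26 (adjusted p 0.00826, limma voom) was 2.64 without HH24 replicate 2, and IGDCC3 was called in 7 of 8 leave-one-out fits. IGDCC4 measured 90.9, 46.8 and 77.3 CPM in HH24, 26.4, 21.4 and 19.7 CPM in HH27 and 69.9 and 55.3 CPM in HH24g. Here HH24 replicate 2 fell below both graft libraries, and the call (1.14 ± 0.18, adjusted p 0.0414) was lost without that library (1.19, adjusted p 0.0635) and in 6 of 8 leave-one-out fits. PARP16, an enzyme of the endoplasmic reticulum that transfers ADP-ribose, was likewise close to HH24 in the grafts, with 56.7, 62.4 and 64.6 CPM in HH24, 15.7, 16.5 and 17.7 CPM in HH27 and 55.9 and 43.7 CPM in HH24g. It was called at 1.09 ± 0.16 (adjusted p 0.0257) and in 1 of 8 leave-one-out fits. The next gene, DPP8, measured 2.74 ± 0.72 (adjusted p 0.147) with overlapping libraries, and the gene before PARP16, MTFMT, measured -0.13 ± 0.21.

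Secreted growth factors formed the next group. HGF, the ligand of the receptor MET that draws muscle precursors into the limb, measured 81.3, 140 and 108 CPM in HH24, 10.7, 6.80 and 4.16 CPM in HH27 and 68.4 and 48.9 CPM in HH24g. The HH24 libraries were above the grafts, but the grafts lay far nearer to them than to HH27, at a position of 0.199. Its log2 fold change of 2.35 ± 0.27 (adjusted p 0.0114, limma voom; 2.33 without HH24 replicate 2) therefore came mostly from HH27, with 3.92 against HH27 and 0.78 against HH24g. FGF18 behaved alike, with 33.2, 23.4 and 23.5 CPM in HH24, 0.383, 1.94 and 1.30 CPM in HH27 and 14.97 and 14.4 CPM in HH24g. FGF18 was called at 2.79 ± 0.36 (adjusted p 0.0183), and fits without HH24 replicate 2 (2.79, adjusted p 0.0635), HH27 replicate 3 or HH24g replicate 2 did not call it (2.56 to 3.03 over all leave-one-out fits). In neither gene do the grafts match the older wing.

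The list of Fgf signalling, which also holds HGF and its receptor MET although HGF is not an Fgf, had 21 tested genes. HGF and FGF18 were its called members, beside 0.276% called of all genes tested, and the median was 0.15. FGF18 was thus the only Fgf called. IL17RD, an inhibitor of Fgf receptor signalling that Fgfs themselves induce, passed the adjusted p under the fold limit. It measured 845, 780 and 928 CPM in HH24, 511, 433 and 478 CPM in HH27 and 557 and 503 CPM in HH24g (0.80 ± 0.08, adjusted p 0.00826). For IL17RD the grafts were near HH27, at a position of 0.842. Other feedback genes had HH24 libraries above all others but did not pass, with 0.74 ± 0.15 for SPRY2 (adjusted p 0.0837) and 1.17 ± 0.24 for SPRY4 (adjusted p 0.0853). Of all genes tested, 5.25% had HH24 libraries above all others. FGF10, the mesenchymal signal to the ridge, had mean levels of 15.1 CPM in HH24g, 30.3 CPM in HH27 and 53.5 CPM in HH24 (1.06 ± 0.22, adjusted p 0.0854). DUSP6 (0.41 ± 0.10, adjusted p 0.121) pointed the same way, and SPRY1 (-0.72 ± 0.31, adjusted p 0.374) the other way. Among 30 tested genes of Bmp and Tgf-beta signalling no gene was called and 22 had a log2 fold change below 0, as did 4732 of all 9062 genes tested, with a median of -0.33 (-0.35 without HH24 replicate 2). FSTL1, a secreted binding protein, came closest (-0.60 ± 0.10, adjusted p 0.0528), and the ligand BMP5 measured -2.20 ± 0.53 (adjusted p 0.119). In the Wnt list 0 of 33 tested genes were called, with LGR5, a receptor for R-spondins, at -2.13 ± 0.42 (adjusted p 0.0819). The Shh and Notch lists (9 and 13 genes tested) held no called gene either.

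The genes in which grafts match HH27 were of other kinds. MME, or neprilysin, a protease on the cell surface that cuts small peptides, measured 138, 109 and 151 CPM in HH24, 69.7, 69.9 and 53.5 CPM in HH27 and 73.9 and 56.2 CPM in HH24g. Grafts and HH27 covered the same range, at a position of 0.977. Its log2 fold change was 1.18 ± 0.16 (adjusted p 0.0190, limma voom) and 1.21 without HH24 replicate 2, and the call was lost without HH24g replicate 2 (1.07 to 1.26 over all leave-one-out fits). KCNAB1, a subunit of voltage-gated potassium channels that lies 3 tested genes from MME on chromosome 9, measured 43.9, 46.8 and 32.3 CPM in HH24, 10.7, 5.83 and 7.79 CPM in HH27 and 16.5 and 16.2 CPM in HH24g. Here the grafts stayed above HH27, at a position of 0.566. KCNAB1 was called at 1.68 ± 0.21 (adjusted p 0.0177), but not without HH27 replicate 3 or HH24g replicate 2 (1.52 to 1.93).

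AKR1D1, a reductase of steroid hormones and bile acid precursors, was the matching gene that was lower in HH24. It measured 67.4, 31.2 and 52.8 CPM in HH24, 276, 282 and 242 CPM in HH27 and 237 and 166 CPM in HH24g. Every HH24 library was below every other library, and the grafts lay nearer to HH27, at a position of 0.801. The log2 fold change was -1.95 ± 0.25 (adjusted p 0.0183, limma voom) and -1.91 without HH24 replicate 2.

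NPTX1, NPY2R and LRRN2 are best known from neurons. NPTX1, a secreted pentraxin of synapses, measured 14.98, 23.4 and 12.7 CPM in HH24, 1.92, 2.91 and 1.82 CPM in HH27 and 2.00 and 1.83 CPM in HH24g (2.80 ± 0.35, adjusted p 0.0177, limma voom). HH27 and grafts were level, with a difference of -0.03 between them. The level in HH24 replicate 2 rested on 3 reads, and without this library NPTX1 was not called (2.77, adjusted p 0.0635). NPTX1 too passed the filter on low counts through HH24 alone, so a higher level there was fixed once it was tested. NPY2R, a receptor of neuropeptide Y, measured 21.4, 7.80 and 15.6 CPM in HH24, 2.68, 2.91 and 4.16 CPM in HH27 and 5.49 and 7.03 CPM in HH24g (1.90 ± 0.30, adjusted p 0.0409). The level in HH24 replicate 2 was 1 read, close to that of HH24g replicate 2. Outside HH24, only HH24g replicate 2 reached the filter on low counts. NPY2R thus passed that filter only through the HH24 libraries, so a higher level there was favoured once it was tested. LRRN2, a leucine-rich repeat protein of the cell surface, measured 39.6, 23.4 and 29.3 CPM in HH24, 14.6, 13.6 and 11.2 CPM in HH27 and 11.5 and 12.2 CPM in HH24g (1.45 ± 0.21, adjusted p 0.0299). NPY2R was called in 0 of 8 and LRRN2 in 1 of 8 leave-one-out fits. Nerve and glia markers (4 genes tested) held no called gene, and their summed level overlapped, with 125 to 147 CPM in HH24, 85.8 to 137 CPM in HH27 and 155 to 156 CPM in HH24g.

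PKIA and ASB8 were also among the matching genes, and PKIA was 1 of the 3 genes with most reads. PKIA, an inhibitor of protein kinase A, took 9.14%, 9.18% and 5.55% of the matched reads of HH24 replicates 1 to 3, 2.35% to 3.11% in HH27 and 2.75% and 2.92% in HH24g. It was called at 1.85 ± 0.30 (adjusted p 0.0461, limma voom), 1.63 without HH24 replicate 2, and in 2 of 8 leave-one-out fits. PLEK, or pleckstrin, known from platelets and leukocytes, took 15.9%, 56.2% and 11.5% in HH24, 3.98% to 4.74% in HH27 and 4.18% and 4.59% in HH24g. PLEK was not called with all libraries (2.59 ± 0.58, adjusted p 0.103) and was called without HH24 replicate 2 (1.89, adjusted p 0.0120). In the list of leukocyte and thrombocyte genes 0 of 7 tested genes were called, and their summed level was 75.3 to 109 CPM in HH24, 79.6 to 99.3 CPM in HH27 and 99.6 to 104 CPM in HH24g. ZNF687, a zinc finger protein, was the other gene called only without HH24 replicate 2 (2.04, adjusted p 0.0387), with 481, 5317 and 297 CPM in HH24, 110, 175 and 82.3 CPM in HH27 and 79.9 and 77.9 CPM in HH24g.

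ASB8, an adaptor of ubiquitin ligases, measured 164, 179 and 71.4 CPM in HH24, 26.4, 32.0 and 25.2 CPM in HH27 and 30.4 and 27.2 CPM in HH24g. HH24 replicate 3 was well below the other HH24 libraries, as it was for PLEK, PKIA and the most abundant unmatched transcript. ASB8 was called at 2.01 ± 0.29 (adjusted p 0.0278, limma voom), and in 1 of 8 leave-one-out fits, that without HH24 replicate 3 (2.601, adjusted p 0.00102). Whether these genes and the unmatched transcript share a source was not tested. With PLEK and PKIA removed, 24 genes were called, all of them among the 25.

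COL12A1, a collagen found on the surface of collagen fibrils, was the other gene lower in HH24. It measured 72.8, 85.8 and 79.2 CPM in HH24, 139, 141 and 165 CPM in HH27 and 213 and 229 CPM in HH24g. The grafts exceeded the older wing, at a position of 1.58, so they did not match it. The log2 fold change was -1.24 ± 0.13 (adjusted p 0.00826, limma voom) and -1.26 without HH24 replicate 2. ADAMTS8, a secreted metalloprotease, also had grafts beyond HH27, with 79.2, 85.8 and 73.4 CPM in HH24, 44.8, 33.0 and 40.5 CPM in HH27 and 36.4 and 27.5 CPM in HH24g. It was called at 1.12 ± 0.15 (adjusted p 0.0210) and in 3 of 8 leave-one-out fits (1.00 to 1.20). Of 42 tested matrix genes COL12A1 alone was called, beside 0.276% of all genes tested. A log2 fold change below 0 was found in 31, beside 4732 of all 9062 genes tested. The median of the list was -0.20 (-0.23 without HH24 replicate 2). POSTN (-1.35 ± 0.25, adjusted p 0.0704), COL3A1 (-0.79 ± 0.16, adjusted p 0.0861) and DCN (-0.66 ± 0.14, adjusted p 0.0865) had HH24 libraries below all others without passing. Such a separation downwards was found in 7.01% of all genes tested.

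The remaining called genes had grafts between both stages. EFCC1, which encodes a protein with EF-hand and coiled-coil domains, measured 90.9, 109 and 89.98 CPM in HH24, 23.4, 19.4 and 21.04 CPM in HH27 and 76.4 and 62.0 CPM in HH24g (1.26 ± 0.13, adjusted p 0.00826, limma voom). Its grafts were close to HH24, at a position of 0.212. RFTN1, a protein of lipid rafts, measured 99.5, 117 and 105 CPM in HH24, 47.9, 42.7 and 39.5 CPM in HH27 and 57.4 and 49.8 CPM in HH24g (1.12 ± 0.12, adjusted p 0.00982). Here the grafts were close to HH27, at 0.764, although the difference from HH24g, 0.97, was just short of the limit for a match. LOC107052003, a gene without a name, was called at 1.10 ± 0.16 (adjusted p 0.0257), with 42.8, 70.2 and 48.9 CPM in HH24, 16.1, 18.5 and 15.8 CPM in HH27 and 32.4 and 27.5 CPM in HH24g. This call was lost without HH24 replicate 2 (adjusted p 0.0733) and with all libraries thinned (0.57, adjusted p 0.633), and it was made in 2 of 8 leave-one-out fits.

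Another 13 genes had an adjusted p-value under 0.05 and a smaller fold change, 12 of them higher in HH24. CCND1, a D-type cyclin that drives entry into S phase, was the lower one and lay just under the fold limit at -0.99 ± 0.10 (adjusted p 0.00826, limma voom). It measured 165, 164 and 188 CPM in HH24, 430, 459 and 406 CPM in HH27 and 281 and 291 CPM in HH24g, with no overlap and with grafts in the middle, at a position of 0.551. In the cell cycle list CCND1 was the only 1 of 40 tested genes to pass the adjusted p, beside 38 of all 9062 genes tested. The median of the list was -0.09. LIN28B, an RNA-binding protein that blocks maturation of let-7 microRNAs and falls as embryos age, measured 165, 164 and 198 CPM in HH24, 89.7, 82.5 and 82.1 CPM in HH27 and 136 and 125 CPM in HH24g (0.78 ± 0.10, adjusted p 0.0183). Its grafts were nearer to HH24, at 0.435.

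GREB1, a gene first described as a target of the oestrogen receptor, showed the closest match of grafts and HH27 among these 13, with 332, 382 and 354 CPM in HH24, 190, 179 and 172 CPM in HH27 and 167 and 194 CPM in HH24g. It reached 0.94 ± 0.09 (adjusted p 0.00826, limma voom), with a difference of 0.01 between grafts and HH27. EPHA4, a receptor of ephrins, measured 308, 304 and 265 CPM in HH24, 168, 174 and 150 CPM in HH27 and 182 and 189 CPM in HH24g (0.73 ± 0.09, adjusted p 0.0183). GJA1, the gap junction protein connexin 43, measured 0.60 ± 0.08 (adjusted p 0.0183). The others were GAB2 (0.91), PLXNC1 (0.83), WFDC1 (0.75), SMARCD2 (0.70) and MLLT1 (0.60), with TAX1BP1, HOXA10-AS and IL17RD described above. In PLXNC1 the libraries overlapped. Just beyond the limit on adjusted p, SLITRK6 measured -2.20 (adjusted p 0.0517), against 0.0461 for PKIA just inside it.

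Lists of other cell types held no called gene. Of the ectodermal list 11 genes were tested (summed level 754 to 973 CPM in HH24, 1038 to 1135 CPM in HH27, 956 to 1330 CPM in HH24g), of the endothelial list 12 (511 to 608, 452 to 486 and 643 CPM in both graft libraries), of the cartilage list 8 and of the apical ridge list 4. No myogenic gene passed the filter. Genes of ribosome assembly had a log2 fold change above 0 in 36 of 41 members tested, beside 4330 of all 9062 genes. Their median was 0.21, and none was called. NOL8, a nucleolar protein, was the exception in size, with 0, 15.6 and 5.87 CPM in HH24, 70.6 to 76.7 CPM in HH27 and 78.9 and 88.6 CPM in HH24g (-4.97 ± 0.87, adjusted p 0.0605, limma voom). Its HH24 levels rested on few reads. NOL8 passed the filter on low counts through HH27 and HH24g alone, so a lower level in HH24 was fixed once it was tested. Cytosolic ribosomal proteins had a log2 fold change below 0 in 60 of 68 genes (median -0.17) and genes of oxidative phosphorylation in 52 of 65 (median -0.12). Over all 9062 genes tested it was 4732, and again no gene of these lists was called. The lists of proximal and retinoid genes (14 tested, median -0.21), glycolysis and hypoxia (25 tested, median 0.10) and immediate early and stress genes (16 tested, median 0.01) held no called gene. List medians were also computed in the fits with thinning, without erythroid genes and with the haemoglobin covariate, and are not given here. Beyond those fits, the part that depth and blood content had in these medians was not tested.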

How the data were processed

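RNA sequencing was analysed for 8 libraries, grouped by sample title. The deposited tables list, per transcript, estimated counts, which need not be whole numbers, and TPM values that the authors derived from them and from effective lengths. TPM was not tested, since it keeps no depth. The submitters' processing notes list HISAT2 2.0.2, Salmon, limma and galGal4; the transcript release is not given in the sources used here. Of 57399 transcripts, 26660 (46.4%) matched a gene of the RefSeq table of GRCg7b by accession, used for names, chromosomes and gene order only. Estimated counts were summed to 14612 genes and rounded; unmatched reads stayed out of library sizes.

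Genes passing filterByExpr (minimum count 10, total 15) entered a limma voom fit with TMM scaling and a mean for each group. Adjusted p-values of genes come from this fit. Libraries were pools of tissue pieces, and p-values measure the spread between such pools. Replicate pairs differed by more than sampling noise (chi-square per degree of freedom 3.82 to 5.29). Other filters and scalings, weights, covariates, thinning, omission of each library, DESeq2 and edgeR's quasi-likelihood test served as alternatives. Software was DESeq2 1.42.0, edgeR 4.0.16, limma 3.58.1 and R 4.3.3, with matplotlib 3.10.9, numpy 2.4.6, pandas 2.3.3 and Python 3.11.15.

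The comparison and the 24 gene lists were chosen with earlier results of these data known. List entries were matched to gene symbols for 625 of 704. Of these, 9 were matched through a synonym to another symbol, some of them to a related gene (ALAS2 to ALAS1, CCNB2 to CCNB1, PKM to PKLR), and 8 of the 9 were tested. The text names, among called genes with a symbol and at least 1 CPM, up to 12 in each direction that were also called without HH24 replicate 2 and up to 5 in each direction that were not, called list members, the 3 genes with most reads and haemoglobin genes. LRRN2, IGDCC4, ADAMTS8, PARP16, LOC107052003, ZNF687, neighbouring genes, the 13 genes under the fold limit and uncalled list members were named after their values were seen. RN7SL1, a non-coding RNA and 1 of the 3 genes with most reads, is described with the alternatives. The study describes 3 replicate experiments per condition and left out 1 HH24 and 1 HH24g library after quality control. The series holds 3 HH24 and 2 HH24g libraries. If these replicates were all, the HH24 library that the study left out is among those used here, and the HH24g library is not. The labels do not say which HH24 library it is, so all 8 were used.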

Additional observations from a re-analysis of the deposited data

Results flagged for a closer look

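A signal lay outside the comparison of genes. The most abundant transcript that matched no gene took 74.3% of all estimated reads in HH24 replicate 2, 32.9% and 24.2% in HH24 replicates 1 and 3, and 8.62% to 26.1% in the HH27 and HH24g libraries. The share was above what a count of 0 allows in every library. HH27 replicate 2, at 26.1%, overlapped the HH24 libraries.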

How the results depend on the processing

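With all libraries 25 genes were called (23 higher, 2 lower in HH24, 9 with grafts matching HH27). The direction of every called gene held in 567 values under the alternatives, of which 370 were called and 197 were not. edgeR's quasi-likelihood test gave 43 calls (25 lower, 21 matching) and DESeq2 gave 151 (75 higher, 76 lower, 81 matching); of these, 20 and 24 were among the 25. Without a limit on fold change there were 38 calls (35 higher). Lower calls numbered 9 with at least 1 count in any library (15 matching), 4 with at least 10 counts in every library, 5 with sample quality weights and 7 with equal weight per library. The haemoglobin level as a covariate left 1 call, higher, with 0 lower and 0 matching. All 25 kept their direction and 21 were larger in size, in a fit that cannot separate haemoglobin from the group difference. Thinning all libraries left 13 higher and 6 lower (7 matching, 2 of them among the 9), and thinning without HH24 replicate 2 left 16 calls (13 higher, 5 matching). Adding unmatched transcripts left 0 calls, 0 higher, 0 lower and 0 matching by limma voom (1539 at an unadjusted p-value under 0.05); the count with other tools was not run. An alternative chosen after seeing the data, removal of PLEK and PKIA with thinning, left 9 calls (7 higher, 5 matching), 4 among the 25; 0 of these 5 were among the 9.

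Leaving out 1 library at a time gave 0 to 27 calls, 0 to 22 higher, 0 to 5 lower and 0 to 7 matching. The low end was without HH24 replicate 1; there were 4 calls without HH24 replicate 3, 9 without HH24g replicate 2, 12 without HH27 replicate 3 and 17 without HH24 replicate 2. Same-numbered libraries did not deviate together (correlations of deviations from group means -0.03 to 0.04). With 2 HH24g libraries the deviations mirror each other, so this check cannot show whether HH27 and HH24g pools shared embryos. The replicate block gave 36 calls (11 lower, 14 matching), 22 among the 25.

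The log2 fold change of RN7SL1, not called, changed sign to 0.52 with the haemoglobin covariate, 0.0250 with all libraries thinned, 0.23 thinned without HH24 replicate 2, 0.0238 without PLEK and PKIA, and 0.01 to 0.14 in 4 leave-one-out fits (-0.48 to 0.14 over all 8). With DESeq2 the log2 fold change of HBBA turned to 0.17, and the log2 fold change of HBAD (-0.44) and the log2 fold change of HBA1 (-0.17) turned with the haemoglobin covariate. The cause was not tested. Depth limits low genes most in HH24 replicate 2, where 3 reads equal 23.4 CPM.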
